A study of Zea mays with 6 samples.

Results

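The maize genes LOC100384300, LOC100272963, LOC100280082 and LOC103635836 had 2 to 12 reads in all over the wild-type kernel libraries and 609 to 10573 reads over the shrek1 mutant libraries. These 4 were chosen from the 49785 genes of the deposited count table for exactly that contrast, so their counts in WT and shrek1 are given as a description and no test of the difference between genotypes is made on them. RNA came from Zea mays kernels at 13 days after pollination, with the pericarp peeled off, in 3 libraries labelled wild-type (WT) and 3 labelled Shrek1-/- (shrek1). All plants grew in the field. Whether libraries of a genotype came from separate ears or plants, and whether WT and mutant kernels shared a genetic background, is not stated in the labels, so the mutation and a difference between lines or ears cannot be told apart, and the p-values below measure the spread between these libraries.

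The genes belong to separate protein families. LOC100384300 carries a Myb-like DNA-binding domain and best matches MYB108 of Arabidopsis in the deposited annotation, a transcription factor known there for roles in responses to pathogens and abiotic stress and in stamen maturation. LOC100272963 best matches temperature-induced lipocalin-1 of Arabidopsis, a small membrane-associated protein with a role in heat and freezing tolerance there. LOC100280082 is described as a flavonol 4-sulfotransferase and best matches cytosolic sulfotransferase 1 of Arabidopsis. Cytosolic sulfotransferases move a sulfate group from the donor PAPS (3'-phosphoadenosine 5'-phosphosulfate) to small molecules such as flavonoids and hormones. LOC103635836 is described as a 28 kDa heat- and acid-stable phosphoprotein (PP28), a substrate of casein kinase known from mammals. No substrate, target or mutant phenotype of these maize genes is drawn on here. Kernels at this stage are mostly starchy endosperm, with an embryo, an aleurone layer and, at the base, a transfer layer that takes up nutrients from the mother plant.

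The libraries held 17145006 to 20288565 counts, and the genotypes lay far apart across the transcriptome. The first principal component held 87.4% of the variance, and 14609 of 22681 tested genes (64.4%) passed an adjusted p of 0.05 in edgeR's quasi-likelihood test, 7264 of them higher in shrek1 (32.0%) and 7345 lower (32.4%). With library size as the only scaling, 4994 were higher and 9682 lower, and the median log2 fold change of all tested genes moved from -0.01 to -0.30. The tissue label could be checked with markers. The 8 endosperm markers that could be matched, of 9, all had counts, with a summed level of 83013 to 111674 CPM (counts scaled to the TMM-adjusted library size) in WT and 48939 to 65742 CPM in shrek1. The sum is mostly zeins, the storage proteins. Of these 8 markers 3 zein genes fell, while 4 rose, the regulators o2 and pbf1 and the starch synthesis genes sh2 and bt2. The gene sh2 (LOC542761) did not pass when scaled by library size alone (log2 fold change 0.19, adjusted p = 0.241 by edgeR), with upper-quartile scaling, or without WT replicate 2, WT replicate 3 or shrek1 replicate 3 (adjusted p = 0.0790, 0.123 and 0.0550 in that order). All 6 embryo markers fell, from a sum of 5543 to 7086 CPM in WT to 100.3 to 115 CPM in shrek1, with the globulin gene glb2 at 0 in every shrek1 library. The pericarp marker p1 had 1 count in 1 WT library and none elsewhere. It was the only pericarp marker listed and does not by itself show that pericarp was absent. In these bulk samples, fewer cells of a type and less RNA per cell cannot be told apart. The gene mutated in shrek1 was not matched to an identifier, which left the genotypes as labelled without a check on that gene.

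The sulfotransferase gene LOC100280082 (chromosome 7, 173668043 to 173669314, minus strand) was the most abundant of the group. It had 3, 1 and 8 counts in WT replicates 1 to 3, and 3487, 3140 and 3946 counts in the shrek1 replicates. All shrek1 libraries stood far above all WT libraries, and the shrek1 values lay within a factor of 1.16 of each other after scaling. Its level was 0.198 ± 0.166 CPM in WT and 207 ± 16.3 CPM in shrek1 (SD, n = 3 each). The ratio of normalised totals was 1024, with an exact 95% counting interval of 586 to 1983 that leaves out variation between libraries. These counts also served to choose the gene, which favours a high ratio. Here and for the rest of the group, ratio and interval describe these libraries only. Per length, the gene stood at 160 ± 11.4 FPKM (fragments per kilobase of gene and per unit of library size, scaled by the authors) in shrek1. That placed it at rank 775 of all 49785 genes by mean FPKM in that genotype. Most of its WT counts came from WT replicate 3, and without that library the ratio was 1973.

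The MYB gene LOC100384300 (chromosome 1, 152367865 to 152369855, minus strand) had 0, 0 and 2 counts in the WT replicates and 189, 161 and 300 in the shrek1 replicates. A WT library with no count still allows up to 3 counts, or 0.141 to 0.166 CPM. Its level was 0.0314 ± 0.0545 CPM in WT and 12.7 ± 3.90 CPM in shrek1 (SD, n = 3 each), where replicate 3 was the high one. The ratio of normalised totals was 378, with a counting interval of 104 to 3126. It rests on the 2 counts of WT replicate 3. Without that library the gene had no WT count and was at least 80.8-fold higher in shrek1, taking 3 counts per WT library as the floor. Leaving out the only WT library with a count makes the WT total 0 in advance, so the bound describes the remaining libraries only. Without WT replicate 2 the ratio was 250. Its FPKM in shrek1 was 9.35 ± 2.81, the lowest of the group.

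The lipocalin gene LOC100272963 (chromosome 5, 187756031 to 187757073, minus strand) had 0, 3 and 0 counts in WT and 387, 203 and 192 in shrek1. Its level was 0.0501 ± 0.0868 CPM in WT and 15.3 ± 6.20 CPM in shrek1 (SD, n = 3 each), with replicate 1 well above the other shrek1 libraries. Its ratio of totals came to 303 (95% counting interval 103 to 1472). Without WT replicate 2 there was no WT count and the gene was at least 100.4-fold higher against the same floor, a bound with the same limit. Without WT replicate 3 the ratio was 195. Its FPKM in shrek1 was 15.6 ± 6.31.

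The PP28 gene LOC103635836 (chromosome 8, 126139604 to 126142263, minus strand) had 1, 0 and 1 counts in WT and 211, 209 and 189 in shrek1. The shrek1 libraries were close to each other, at 11.98 ± 1.08 CPM against 0.0342 ± 0.0299 CPM in WT (SD, n = 3 each). Its ratio of totals came to 354 (95% counting interval 97.6 to 2929), and to 235 without WT replicate 2. Its FPKM in shrek1 was 14.1 ± 1.38. Its gene model covers 833 bases of a 2660-base span, whereas that of the sulfotransferase gene covers the whole of its 1272-base span. The models of the MYB and lipocalin genes cover 1327 of 1991 and 960 of 1043 bases.

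**Figure D1:**
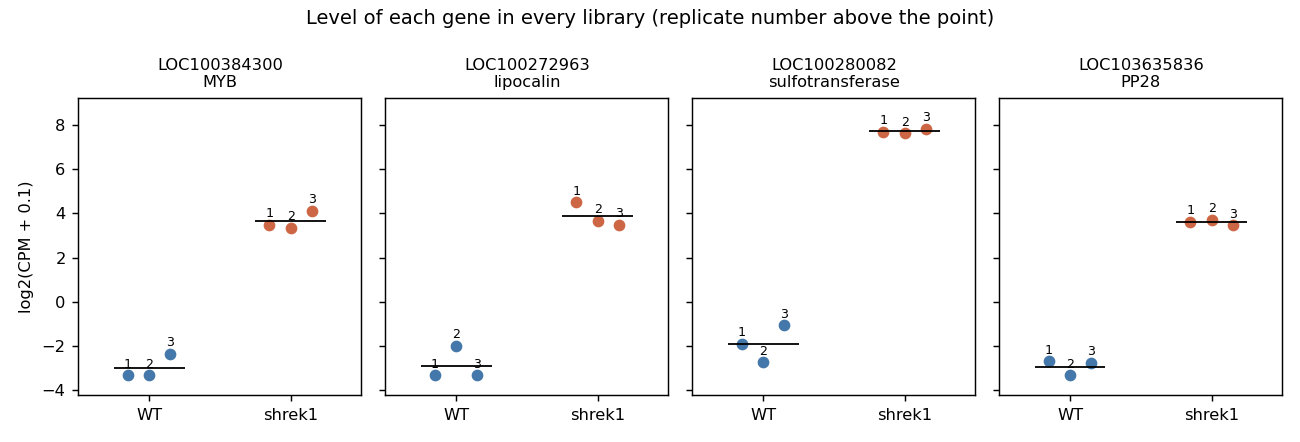
Level of each of the 4 genes in every library, as log2(CPM + 0.1), with 1 point per library, the replicate number above it and a line at the group mean of the plotted values. Every shrek1 point lies above every WT point, the sulfotransferase is the highest in shrek1 (207 CPM on average), and the MYB and lipocalin genes differ most among the shrek1 libraries.

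Among the shrek1 libraries the genes did not share 1 order. The MYB and sulfotransferase genes were highest in replicate 3 and lowest in replicate 2, the lipocalin gene was highest in replicate 1 and the PP28 gene in replicate 2. The coefficient of variation of the CPM was 7.88% for the sulfotransferase gene and 9.02% for the PP28 gene, but 30.7% for the MYB gene and 40.5% for the lipocalin gene. Counting error alone, which leaves out differences between separate samples, gives 1.68%, 7.02%, 6.79% and 6.19% in the same order, and the PP28 gene was the nearest to it. In replicate 3 the MYB gene stood at 1.35 times its shrek1 mean and the sulfotransferase gene at 1.09 times. The lipocalin gene ranged from 1.46 times its mean in replicate 1 to 0.717 in replicate 3. The 2 matched transfer layer markers, betl2 and mn1, summed to 42.4, 14.7 and 3.999 CPM in shrek1 replicates 1, 2 and 3, the same order as the lipocalin gene, against 6.26 to 7.64 CPM in WT. Of these, betl2 passed the test as higher in shrek1 and mn1 did not. The endosperm markers summed to 48939, 52190 and 65742 CPM, with replicate 3 highest as for the MYB and sulfotransferase genes. Other marker lists shared an order as well. The 2 matched embryo-surrounding region markers followed the lipocalin order at a low level, with 2.78, 1.79 and 0.400 CPM. The embryo markers were also highest in replicate 1, at 115, 100.3 and 100.8 CPM. The 1 matched aleurone marker had the order of the PP28 gene, at 116, 127 and 98.7 CPM. An order over 3 libraries thus singles out no tissue, and the part of any tissue in these differences was not tested.

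**Figure D2:**
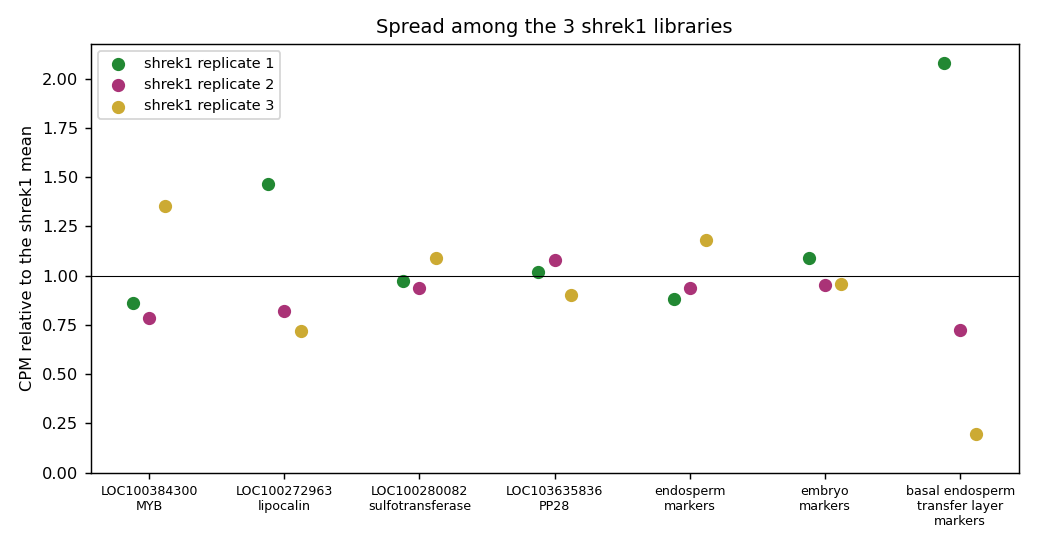
CPM of each of the 4 genes and summed CPM of 3 marker lists in each shrek1 library, divided by the mean over the shrek1 libraries. The sulfotransferase and PP28 genes stay near 1, the lipocalin gene ranges from 0.717 in replicate 3 to 1.46 in replicate 1, and the transfer layer markers from 0.196 to 2.08.

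The pattern was rare among all genes, and the opposite pattern was more frequent. The group's own limits are a total of at most 12 WT counts, set by the sulfotransferase gene, and a mean of at least 11.98 CPM in shrek1, set by the PP28 gene. Within these limits lay 10 genes, the 4 described and 6 others. With the genotypes exchanged, 65 genes had at most 12 counts over the shrek1 libraries and at least 11.98 CPM in WT. With shrek1 replicate 3 left out and the limits recomputed, the counts were 11 and 132, and with WT replicate 3 left out they were 8 and 32. The recomputed limits differ, and so does the number of libraries they cover. These counts therefore do not show the effect of a single library at fixed limits. Against this, 34.7% of tested genes had all shrek1 libraries above all WT libraries in CPM and 35.3% had them below, so a separation without overlap was common and the near absence from 1 genotype was not. As all tested genes did, the 4 genes had to pass a filter on low counts, which they could pass only through shrek1.

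Of the 6 other genes, LOC100283118 and LOC100304211 are also among the nearest to the MYB, lipocalin or PP28 gene in distance, and the remaining 4 were named after their values were seen. LOC100273251 (chromosome 2, 20057577 to 20059096) is described as a cis-zeatin O-glucosyltransferase, an enzyme type that stores the hormone cytokinin as a glucoside. It had 0, 1 and 0 counts in WT and 864, 682 and 680 in shrek1, a ratio of 2588 with a counting interval of 464 to 102246. The ratio rests on that 1 count. Without WT replicate 2 the gene was at least 286-fold higher against the floor of 3 counts per WT library, and without WT replicate 3 the ratio was 1661. LOC100284418 codes for ubiquitin fused to the ribosomal protein L40 and had a ratio of 434, with 5 WT counts, all in replicate 3. It was at least 232-fold higher without that library, and the ratio was 287 without WT replicate 2. For each of these genes the bound leaves out the only WT library with a count. The RING-type ubiquitin ligase gene LOC100283118 had 3, 0 and 5 counts in WT and 244, 180 and 241 in shrek1, and its ratio was 96.6, or 64.1 without WT replicate 2 and 165 without WT replicate 3. The uncharacterized genes LOC100285473, LOC100304211 and LOC103651651 had ratios of 247, 95.9 and 73.9. Just outside the limits were LOC100381914, with 14 WT counts and 25.3 CPM in shrek1, and the long noncoding RNA gene LOC109940908, with 4 WT counts and 11.1 CPM in shrek1.

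**Figure D3:**
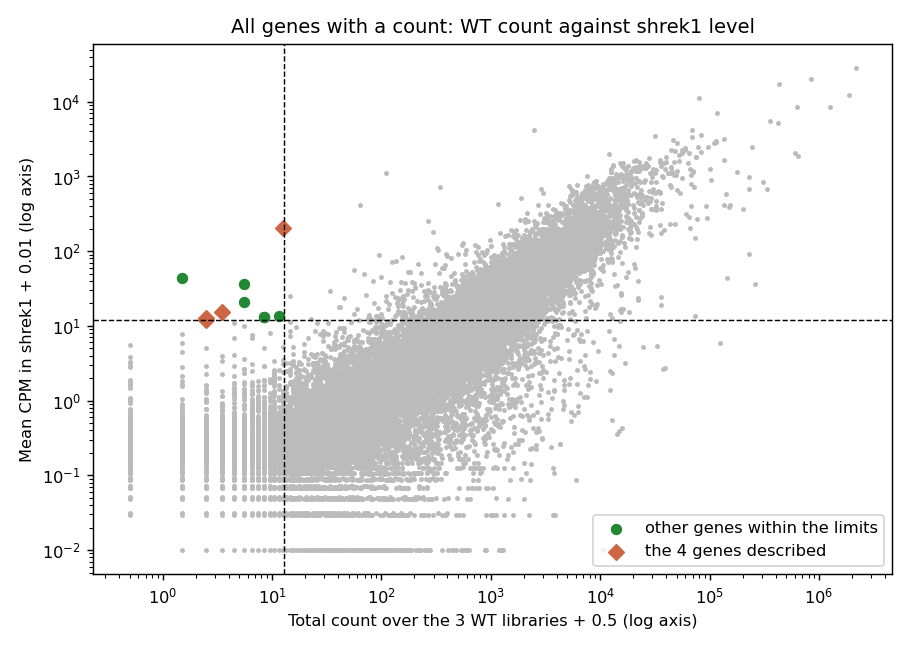
Mean CPM in shrek1 (plus 0.01) against the total count over the 3 WT libraries (plus 0.5) for all genes with a count, both on log axes, with dashed lines at the limits of 12 counts and 11.98 CPM. The upper left corner holds 10 genes; diamonds mark the 4 described, of which the MYB and PP28 genes, at 2 WT counts each, overlap at the lower limit.

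By Euclidean distance of log2(CPM + 0.5) over the 6 libraries, the MYB, lipocalin and PP28 genes lay at distances of 0.777 for MYB and PP28, 0.952 for lipocalin and PP28, and 1.30 for MYB and lipocalin. The distance uses the counts by which the genes were chosen, so that closeness among them in WT was given by the choice. The sulfotransferase gene stood 6.67 to 7.07 from them because of its higher level. The gene nearest to the MYB gene was LOC109940908, at 0.590, with 129, 172 and 264 counts in the shrek1 replicates, so replicate 3 was also its high library. The second was LOC100304211, at 0.629. Nearest to the PP28 gene were LOC100283118, at 0.670, and LOC100304211, at 0.705. The lipocalin gene had the PP28 gene and LOC100283118, at 1.08, as its nearest. For the sulfotransferase gene they were farther off, the ubiquitin-L40 gene LOC103633191 at 2.74 and the uncharacterized gene LOC103635750 at 3.53, with 63 and 95 WT counts.

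Among the relatives of the sulfotransferase gene was one with the opposite pattern. LOC100284251, a gene also described as a flavonol 4-sulfotransferase but best matching cytosolic sulfotransferase 18 of Arabidopsis, had 235, 349 and 310 counts in WT and 1, 0 and 2 in shrek1. It fell with a log2 fold change of -7.84 ± 0.38 (SE) and an adjusted p of 1.11e-07 by edgeR's quasi-likelihood test, and it is 1 of the 65 genes with the opposite pattern. Over the 10 genes with a sulfotransferase domain, a grouping made after values were seen, the summed level was 11.9 ± 1.52 FPKM in WT and 161 ± 11.7 FPKM in shrek1 (SD, n = 3 each). LOC100280082 made up 0.301% to 2.49% of that sum in WT and 99.2% to 99.4% in shrek1, a description that holds the counts by which it was chosen. In WT the sum was mostly LOC100284251, at 8.70 FPKM, which stood at 0.0323 FPKM in shrek1.

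Of the 10 other tested genes with sulfotransferase in their description, none passed as higher and 7 passed as lower, against 32.0% and 32.4% of all tested genes, and their median log2 fold change was -1.69 against -0.01 over all genes. By edgeR, 0 were higher at an unadjusted p under 0.05 as well, DESeq2 also gave 0 higher, and 3 of the 10 did not pass. Of the 5 tested among the 9 relatives that carry the domain, 3 were lower and 0 higher. The lower genes include LOC100273019 and LOC100272724, cytosolic sulfotransferase relatives, at log2 fold changes of -3.09 ± 0.47 and -1.68 ± 0.45. These were named after their values were seen and are weakly counted. LOC100273019 had 21, 47 and 45 counts in WT and 4, 3 and 4 in shrek1, and LOC100272724 had 22, 29 and 32 against 4, 6 and 12. The 7 also include 3 genes for other enzymes, LOC606419 and LOC103647705, which matched by an older name of the enzyme 5'-adenylylsulfate reductase, and LOC100282424, a UDP-sulfoquinovose synthase of sulfolipid synthesis. A pair of genes for protein-tyrosine sulfotransferase, which modifies secreted peptides, were the most abundant by mean CPM over both genotypes. In WT alone LOC606419 was higher, at 26.0 CPM. LOC100280275 stood at 20.8 ± 2.95 CPM in WT and 21.04 ± 2.13 in shrek1 (adjusted p = 0.916 by edgeR), and LOC100192103 fell from 20.2 ± 3.22 to 14.4 ± 2.28 CPM (n = 3 each), a call that was lost without shrek1 replicate 3 (adjusted p = 0.0707 by edgeR).

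A list on sulfate, matched by wording, holds genes that take it up and activate it to PAPS, and others that reduce it, break down the by-product PAP or carry molybdate. The wording also matched the nitrite reductase genes LOC542264, tested without a call, and LOC103627781, with too few counts to test. Of 33 tested, 6 passed as higher (18.2%) and 15 as lower (45.5%), against 32.0% and 32.4% of all tested genes, and the median log2 fold change was -0.48 against -0.01. With library size as the only scaling 4 were higher and 22 lower. The sulfate transporter gene sfp5, the most abundant of those that fell, went from 138 ± 30.7 to 52.6 ± 11.5 CPM (SD, n = 3 each). A second transporter gene, LOC100383552, had a log2 fold change of -5.09 ± 0.24, and the ATP sulfurylase gene LOC103625889, whose enzyme takes the first step of sulfate activation, one of -1.91 ± 0.19. These 2 were picked after their values were seen. The most abundant gene that rose was LOC100283726, described as a PAPS transporter but best matching a UDP-sugar transporter, from 25.2 ± 4.998 to 36.3 ± 1.71 CPM, and with library size only it did not pass (log2 fold change 0.25). The sulfite reductase gene LOC542221, the most abundant of the list, stood at 158 ± 6.49 and 123 ± 32.7 CPM with no call (adjusted p = 0.0911), but passed as lower under 5 other settings, among them without shrek1 replicate 2 (adjusted p = 0.00395 by edgeR). Of the 6 that rose, LOC103643604 and LOC100284487 best match molybdate transporters, and LOC606422 and LOC606482 are like adenylylsulfate reductases, all 4 named after their values were seen. LOC100281036, likewise named afterwards, is described as a bifunctional PAPS synthetase and best matches ATP sulfurylase 2. It rose from 12.4 ± 1.25 to 17.7 ± 1.35 CPM (SD, n = 3 each), a log2 fold change of 0.51 ± 0.13 that was 0.21 and not called when scaled by library size alone. The call of LOC100284487 was lost without WT replicate 3 or shrek1 replicate 3 (adjusted p = 0.05004 and 0.0830 by edgeR). The members LOC606419 and LOC103647705 are also in the sulfotransferase list. The summed embryo markers fell alongside these lists, from 5543 to 7086 CPM in WT to 100.3 to 115 CPM in shrek1, and their part in these falls was not tested.

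The other gene that best matches temperature-induced lipocalin-1, LOC100286188, is the main lipocalin of its kind in both genotypes. It had 282, 425 and 429 counts in WT and 1082, 841 and 1155 in shrek1, and the genotypes did not overlap. It rose from 19.0 ± 3.02 to 60.2 ± 7.31 CPM (n = 3 each), a log2 fold change of 1.66 ± 0.14 with adjusted p = 2.87e-06 by edgeR. Together the pair summed to 21.1 ± 3.80 FPKM in WT and 80.6 ± 10.5 FPKM in shrek1. LOC100272963 supplied 0% to 0.663% of the sum in WT and 13.6% to 25.3% in shrek1, shares that hold the counts by which it was chosen. The chloroplastic lipocalin gene LOC100283155 was at 3.32 ± 0.722 and 3.34 ± 0.611 CPM (adjusted p = 0.985). In the wider list, which adds the lipocalin-like xanthophyll enzymes violaxanthin de-epoxidase and zeaxanthin epoxidase, 3 of 8 tested genes rose and 3 fell (37.5% each, near the 32.0% and 32.4% of all tested genes), and the call of 1 that rose, the weakly counted LOC100285076, was lost without any one library other than shrek1 replicate 1. With library size as the only scaling 1 was higher, and with DESeq2, upper-quartile scaling, no filter or the replicate block 2. The most abundant that fell was LOC109943671, which best matches zeaxanthin epoxidase but is annotated as a long noncoding RNA, from 19.9 ± 2.55 to 12.7 ± 2.28 CPM. The others that fell, named after their values were seen, are LOC101027232, annotated as a transcribed pseudogene, and the protein-coding violaxanthin de-epoxidase gene LOC100381876.

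Both other PP28 genes rose, as did 32.0% of all tested genes. LOC100282833 had 944, 1022 and 1138 counts in WT and 2091, 1893 and 2079 in shrek1, a log2 fold change of 1.18 ± 0.08 with adjusted p = 5.47e-07 by edgeR. LOC100282957 went from 44.9 ± 4.45 to 76.2 ± 1.25 CPM (n = 3 each), a log2 fold change of 0.76 ± 0.09. The trio summed to 67.1 ± 2.19 FPKM in WT and 161 ± 2.46 FPKM in shrek1, and LOC103635836 held 0% to 0.0999% of that in WT and 7.98% to 9.54% in shrek1. The near absence of LOC103635836 from the WT sum was given by the choice of the gene. In shrek1 the sum was mostly LOC100282833, at 138 FPKM. LOC103635836, at 14.1 FPKM, stood above LOC100282957, at 8.55 FPKM, but below it in CPM (11.98 against 76.2). The share of LOC103635836 in the sum was thus small, in contrast to that of the sulfotransferase gene.

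**Figure D4:**
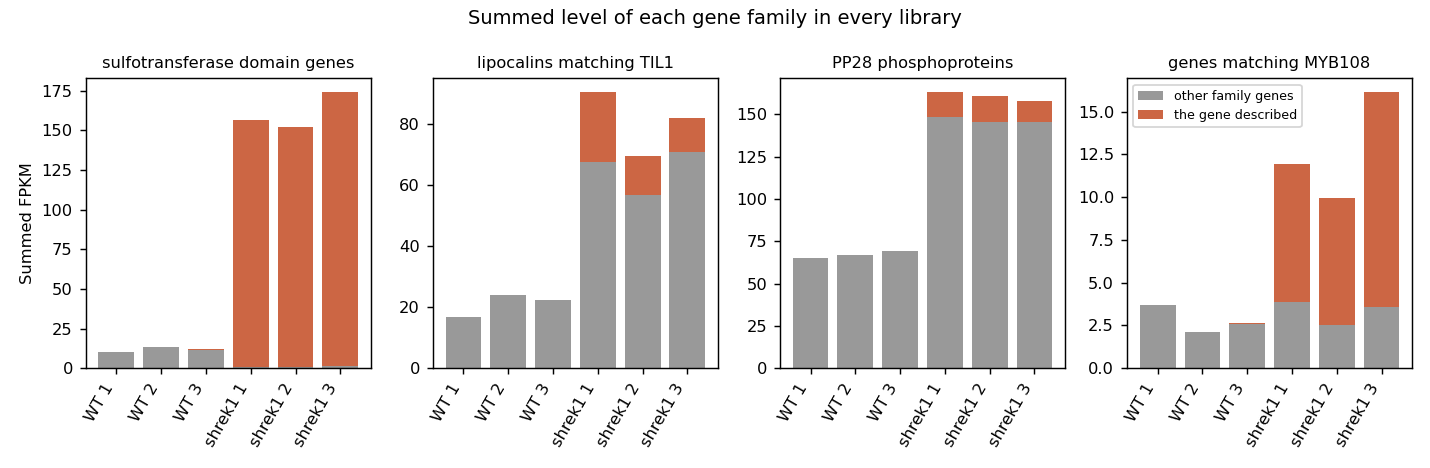
Summed FPKM of each family in every library, with the described gene in colour and its relatives in grey (10 sulfotransferase domain genes, 2 lipocalins, 3 PP28 genes and 13 genes that best match MYB108), each panel with its own axis from 0. The sulfotransferase sum in shrek1 is nearly all LOC100280082, the MYB sum mostly LOC100384300, and the lipocalin and PP28 sums mostly relatives.

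Of the 12 other genes that best match MYB108, 5 had no count in any library and 3 could be tested. The most abundant, LOC100274036, stood at 3.37 ± 1.42 CPM in WT and 4.62 ± 1.40 CPM in shrek1 (n = 3 each) without a call (adjusted p = 0.236 by edgeR). LOC100273260 fell, from 16, 14 and 14 counts to 0, 6 and 0, with adjusted p = 0.0249 by edgeR. That call was lost without any one of WT replicates 1 and 2 and shrek1 replicates 1 and 3. LOC100384300 made up 67.6% to 78.0% of the summed FPKM of all 13 genes in shrek1 and 0% to 2.69% in WT. These shares hold the counts by which it was chosen.

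In the wide MYB list, defined by that word in the description, 84 of 313 tested genes rose (26.8%) and 118 fell (37.7%), with a median log2 fold change of -0.15. The shares over all genes were 32.0% and 32.4%, and the median -0.01. With library size as the only scaling 52 were higher and 152 lower. The most abundant, LOC103650675, is described as MYB77 and best matches MYB44, a stress-related regulator in Arabidopsis, and it rose from 99.9 ± 15.5 to 480.0 ± 89.0 CPM (n = 3 each). The most abundant that fell, LOC100282790, matched by wording. It best matches the ubiquitin ligase MIEL1, which acts on a MYB protein in Arabidopsis, and went from 171 ± 16.7 to 124 ± 18.6 CPM. Among the 152 tested genes annotated with the Myb-like DNA-binding domain, a list added after values were seen, 36 were higher (23.7%) and 68 lower (44.7%), against the same 32.0% and 32.4%, and with library size only 22 and 85.

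The 4 genes lie on 4 chromosomes, and all are on the minus strand, as are 50.1% of all genes. No annotated gene overlapped any of them, and the closest lay 1.57 kb from the lipocalin gene. This was LOC103628754, whose description is that of a replication protein A subunit and which had 1 count over all 6 libraries. On its other side LOC100383153 rose, with a log2 fold change of 0.42 ± 0.10 that was 0.13 and not called with library size only. The genes next to the MYB gene, LOC118476061 at 15.003 kb and LOC103639517 at 161 kb, had 0 and 1 counts in all. Beside the sulfotransferase gene, LOC100857072 at 88.1 kb had no count, and LOC103633408, for a CDC48-type ATPase at 93.7 kb, rose by 0.79 ± 0.08. The PP28 gene lay between LOC100272622, for a Rab GTPase at 53.3 kb, and LOC103635837, for an O-methyltransferase-like protein at 33.9 kb, neither with a call, at log2 fold changes of 0.09 ± 0.09 and 0.39 ± 0.41.

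Of the 40 genes within 5 positions on either side of the 4 genes, 24 had enough counts to be tested, 9 rose and 6 fell, against 64.4% called among all genes, and their median log2 fold change was 0.03. With library size as the only scaling 5 were higher and 9 lower. The largest change among them was that of LOC100286251, named EAL2 in the table and 97.3 kb from the sulfotransferase gene, which fell from 603 ± 83.2 to 19.0 ± 8.80 CPM (n = 3 each), a log2 fold change of -4.98 ± 0.39 with adjusted p = 4.0e-05 by edgeR. It was picked after its value was seen. Sequences of the genes and of close copies were not used here, so whether reads of near-identical relatives were split between them was not tested.

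**Figure D5:**
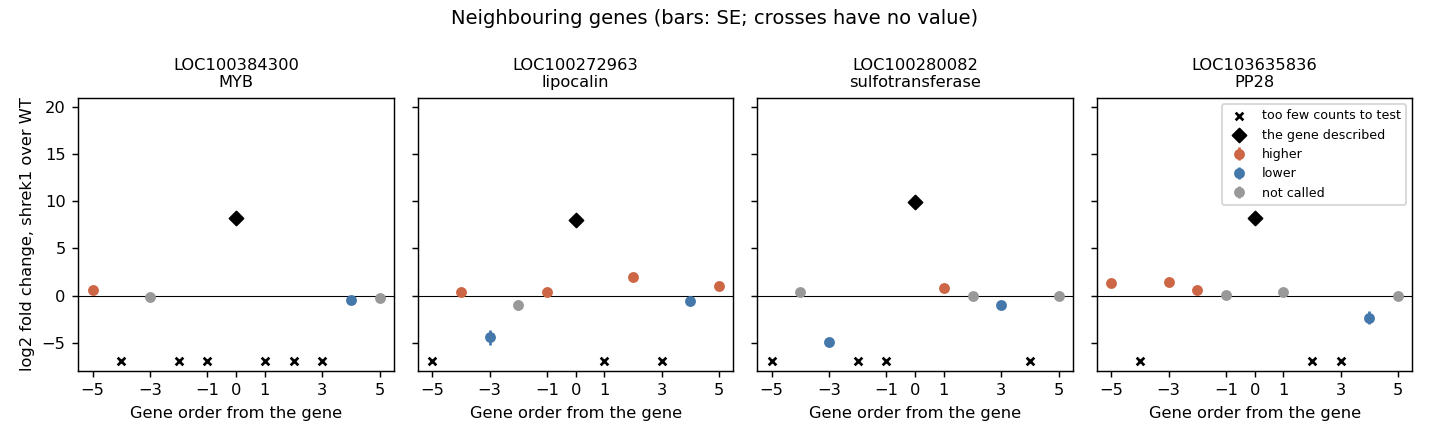
Log2 fold change (shrek1 over WT, bars are SE) of the 5 annotated genes on either side of each of the 4 genes, in gene order, with the fitted value of the gene itself as a black diamond. Crosses along the bottom are genes with too few counts to test and carry no value. No neighbour comes near the value of the gene in the centre, which was chosen for its large difference.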

How the data were processed

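The submitters' processing notes name featureCounts 1.5.0-p3 and HISAT2 2.0.5, with no role or strand setting stated. The deposited counts are whole numbers per gene, 1 column per library, not normalized by the authors. FPKM values as deposited equal the counts over gene length and 1 library size per library (largest deviation 1.36e-06%). Coordinates are those of the deposited table. Chromosome numbers came from a RefSeq table (Zm-B73-REFERENCE-NAM-5.0), which held 49738 of the 49785 identifiers, 48178 with the same start.

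In R 4.3.3, edgeR 4.0.16 (filterByExpr by group, TMM, robust quasi-likelihood, no block, two-sided) tested 22681 genes with Benjamini-Hochberg adjustment at 0.05, and was tested on simulated data. "Rose" and "fell" refer to that threshold. SEs were derived from the F value and are approximate. DESeq2 1.42.0 was an alternative. Counting intervals are exact binomial (Clopper-Pearson) at 95% and, like floors of 3 counts, cover counting error only, since reads carry no molecular identifiers. Neither makes allowance for the choice of genes by the same counts.

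The 4 genes and all lists were chosen with earlier results of these data known. Named genes are the 4, the 2 nearest to each in distance, the adjacent gene on each side and, per list of relatives, the most abundant of all, of those higher and of those lower. Abundance in these lists is the mean CPM over both genotypes. Other genes of the lists were named after their values were seen. Planned protein matches were replaced by the best match in the deposited annotation, chosen after seeing the data, and planned promoter motifs were not analysed here.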

Additional observations from a re-analysis of the deposited data

How the results depend on the processing

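Counts of higher and lower genes over all genes, relatives and neighbours stayed within 1.5 times of those reported under median-of-ratios and upper-quartile scaling, no filter, DESeq2, the replicate block and the loss of any 1 library, with 2 exceptions: without a filter 5 sulfotransferase domain genes were lower, and the count of lower genes that best match MYB108 was 0 to 1 with 1 library left out. With library size as the only scaling, 52 MYB genes, 22 MYB domain genes, 1 lipocalin-list gene and 5 neighbours were higher; this scaling moves the median of all genes to -0.30. With the replicate block, 7150 genes were higher and 7198 lower. Replicate numbers showed no clear pairing of the libraries. Same-number correlations of deviations were 0.096, -0.049 and 0.028, against -0.096 to 0.060 between different numbers. These values do not show whether the libraries were paired by design. With a WT limit of 0 counts, 0 genes had the shrek1 pattern and 8 the opposite one; with the 11.98 CPM limit doubled, 3 and 24. Leaving out 1 library (chosen after seeing the data, limits recomputed and so not alike) gave 8 to 11 and 32 to 132. The fitted log2 fold changes of the 4 genes, whose sign the choice of genes fixes, lay between 7.43 and 11.1 over the 12 alternatives. WT totals of 2 or 3 counts limit the ratios of the MYB, lipocalin and PP28 genes.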
